A study of Mus musculus with 60 samples.

Results

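The genes described here are 9 genes that define resting, or homeostatic, microglia: P2ry12, Tmem119, Cx3cr1, Gpr34, Sall1, Fcrls, Olfml3, Csf1r and Irf8. They were found by their symbols among the 770 genes of the nanoString nCounter Mouse Neuroinflammation Panel, and each of the 9 was on the panel. The mice were 20 Balb/C females aged 13 weeks at collection, and RNA was taken from their hippocampus, hypothalamus and brain stem. Tumor-bearing mice had received 67NR cells, a non-metastatic mouse mammary carcinoma line, into mammary glands, and vehicle injected mice had received the DMEM medium alone. Brains were collected 25 days after injection at ZT19 (mid-dark) or ZT7 (mid-light) under a 14:10 Light:Dark cycle, with 5 mice in each combination of tumor and phase. Of 60 samples listed, 56 had values and were analysed, 20 of hippocampus, 17 of hypothalamus and 19 of brain stem. The 4 others all came from vehicle injected mice, so that the vehicle injected groups of the hypothalamus held 3 mice (mid-dark) and 4 mice (mid-light) and that of the brain stem 4 (mid-dark). Each mouse was 1 replicate. All values are log2 expression values, so that a difference of 1 is a 2-fold change.

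Microglia are the resident macrophages of the brain. In the undisturbed brain they survey the tissue with moving processes and express a set of receptors, secreted proteins and transcription factors. Many of these, though not all, are turned down when microglia react to injury or inflammation. Tissue homogenates were measured, so fewer microglia, less RNA per microglia and RNA of the same gene from other cells cannot be told apart in any result here. Most of the 9 genes encode receptors or surface proteins. P2ry12 is the purinergic receptor that steers microglial processes toward ADP, Cx3cr1 is the receptor for the neuronal chemokine Cx3cl1, Gpr34 is a receptor for lysophosphatidylserine, Csf1r is the growth factor receptor on which microglial survival depends, and Tmem119 is a membrane protein used as a microglia marker. Sall1 is a zinc finger transcription factor of microglial identity, and Irf8 is a transcription factor of myeloid development. Fcrls is an Fc receptor-like scavenger receptor, and Olfml3 is a secreted olfactomedin-like protein.

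The 250 bases before the outermost annotated start (RefSeq, GRCm38.p6) are shown for the 4 members whose levels differed most clearly between the phases, P2ry12 and Cx3cr1, which had lower estimates at mid-dark, and Sall1 and Irf8, which had higher ones. The windows lie at chr3:59262986-59263235 on the minus strand for P2ry12, chr9:120068297-120068546 on the minus strand for Cx3cr1, chr8:89044163-89044412 on the minus strand for Sall1 and chr8:120736108-120736357 on the plus strand for Irf8. Sequences run 5′ to 3′ toward the gene, and capitals mark the E-box CACGTG, which reads the same on both strands and is the element that clock transcription factors bind, and the core AGGAAG or its reverse complement CTTCCT, as bound by ETS factors such as the myeloid regulator PU.1.
P2ry12: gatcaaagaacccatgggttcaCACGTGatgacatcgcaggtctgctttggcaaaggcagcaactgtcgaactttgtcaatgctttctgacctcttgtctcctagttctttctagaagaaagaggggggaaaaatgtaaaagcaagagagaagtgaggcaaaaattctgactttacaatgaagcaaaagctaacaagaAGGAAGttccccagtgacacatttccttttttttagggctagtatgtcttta
Cx3cr1: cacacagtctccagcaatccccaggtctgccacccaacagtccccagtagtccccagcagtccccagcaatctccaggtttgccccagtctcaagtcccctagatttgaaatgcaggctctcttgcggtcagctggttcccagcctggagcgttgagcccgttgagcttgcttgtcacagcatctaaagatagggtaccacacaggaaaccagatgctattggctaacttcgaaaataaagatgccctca
Sall1: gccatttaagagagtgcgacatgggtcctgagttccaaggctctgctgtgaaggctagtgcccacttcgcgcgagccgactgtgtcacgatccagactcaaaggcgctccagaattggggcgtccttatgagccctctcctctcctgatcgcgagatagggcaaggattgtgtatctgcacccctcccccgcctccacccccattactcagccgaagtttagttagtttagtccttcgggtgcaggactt
Irf8: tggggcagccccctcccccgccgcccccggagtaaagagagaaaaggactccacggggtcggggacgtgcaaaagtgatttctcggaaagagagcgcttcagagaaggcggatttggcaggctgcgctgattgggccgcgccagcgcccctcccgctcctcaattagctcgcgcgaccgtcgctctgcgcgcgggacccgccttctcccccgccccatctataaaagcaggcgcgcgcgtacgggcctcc
The P2ry12 window held 1 E-box, which began 228 bases before the start, and 1 AGGAAG core, which began 52 bases before it. Neither motif was found in the windows of Cx3cr1, Sall1 and Irf8 shown. An E-box was present in 6.02% of the 32851 windows of this length in the reference table, and the core in 29.5%. Among the 800 windows of genes on the panel the shares were 8.62% and 36.2%. Olfml3 held the core and no E-box, and Fcrls, whose listed start lies inside the gene record, held the core 4 times. At another listed start of Sall1, inside the gene record, the core was found once. These matches are descriptions of the letters only.

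The first comparison asked how the members differed between brain regions. P2ry12, Tmem119, Cx3cr1, Gpr34, Fcrls, Olfml3, Csf1r and Irf8 were higher in the hippocampus than in the hypothalamus and the brain stem, whereas Sall1 was higher in the brain stem than in both other regions. Fcrls differed most, 2.63-fold between hippocampus and hypothalamus and 3.04-fold between hippocampus and brain stem. In the model over the 3 regions, with the mouse as a block and groups weighted equally, 8 of the 9 members had an adjusted p under 0.05 for hippocampus against hypothalamus, 9 for hippocampus against brain stem and 6 for hypothalamus against brain stem. Of all genes tested, 71.7%, 76.6% and 66.5% did so, which makes these counts close to the background. The directions were less even. The same 8 members were higher in the hippocampus in both comparisons, against 30.3% of the panel for the hypothalamus and 34.9% for the brain stem. The median difference of the members was 0.30 for hippocampus minus hypothalamus and 0.46 for hippocampus minus brain stem, against -0.05 and -0.03 over all genes, and 0.14 for hypothalamus minus brain stem, against 0.02.

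Among the receptors, P2ry12 ranged from 9.53 to 10.06 in the hippocampus with a median of 9.82, from 9.11 to 9.61 with a median of 9.26 in the hypothalamus, and from 8.85 to 9.34 with a median of 9.06 in the brain stem. It was higher in the hippocampus in 17 of 17 mice when compared with the hypothalamus and in 19 of 19 when compared with the brain stem, where the ranges did not overlap. The share of all panel genes without overlap between regions, or higher in each mouse, was not counted, here or for the members below. The differences were 0.52 ± 0.0409 (SE; limma, adjusted p = 7.91e-16) and 0.72 ± 0.0392 (adjusted p = 3.81e-22). Gpr34 had values of 8.96 to 9.54 (median 9.17) in the hippocampus, 8.29 to 9.03 (median 8.66) in the hypothalamus and 8.19 to 8.88 (median 8.50) in the brain stem. Its hippocampal values again lay above every brain stem value, with differences of 0.53 ± 0.0497 from the hypothalamus (adjusted p = 2.8e-13) and 0.66 ± 0.0476 from the brain stem (adjusted p = 1.51e-17).

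Cx3cr1 ranged from 10.02 to 10.38 (median 10.17) in the hippocampus, 9.77 to 10.09 (median 9.91) in the hypothalamus and 9.34 to 9.89 (median 9.67) in the brain stem. All 16 mice with 3 regions had the order hippocampus, hypothalamus, brain stem for this fractalkine receptor. The steps were 0.30 ± 0.0324 between hippocampus and hypothalamus (adjusted p = 1.63e-11) and 0.24 ± 0.033 between hypothalamus and brain stem (adjusted p = 1.97e-08). Tmem119 lay at 9.30 to 9.72 in the hippocampus (median 9.42), 9.04 to 9.40 in the hypothalamus (median 9.19) and 8.61 to 9.29 in the brain stem (median 9.03). Its hippocampal level was above the hypothalamus by 0.24 ± 0.044 (adjusted p = 3.06e-06) and above the brain stem by 0.46 ± 0.0421 (adjusted p = 7.7e-14). Csf1r had the smallest of the receptor differences from the hippocampus, 0.20 ± 0.047 from the hypothalamus (adjusted p = 0.00016) and 0.29 ± 0.0451 from the brain stem (adjusted p = 1.82e-07), with overlapping ranges. It was nevertheless higher in the hippocampus in 17 of 17 and 19 of 19 mice. Hypothalamus and brain stem were not separated by this gene (difference 0.08, 95% interval -0.01 to 0.18, adjusted p = 0.123).

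Fcrls ranged from 7.08 to 7.71 in the hippocampus (median 7.29), from 5.54 to 6.28 in the hypothalamus (median 5.91) and from 5.18 to 5.98 in the brain stem (median 5.82). Every hippocampal value lay above every value of the other 2 regions, but how many panel genes were separated in this way was not counted. The differences were 1.40 ± 0.0564 (adjusted p = 4.65e-27) and 1.60 ± 0.054 (adjusted p = 1.49e-30), whereas hypothalamus and brain stem differed by 0.21 ± 0.0574 (adjusted p = 0.00149). Olfml3, the secreted member, had medians of 8.16, 7.84 and 7.82 in the 3 regions, and it was higher in the hippocampus by 0.36 ± 0.0417 and 0.36 ± 0.0399 (adjusted p = 1.44e-10 and 1.91e-11). Its difference between hypothalamus and brain stem was 0.01 (95% interval -0.08 to 0.09). The RefSeq gene records (GRCm38.p6) place Fcrls, Olfml3 and P2ry12 on chromosome 3, Tmem119 on chromosome 5, Sall1 and Irf8 on chromosome 8, Cx3cr1 on chromosome 9, Csf1r on chromosome 18 and Gpr34 on chromosome X.

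The transcription factors departed from this order. Sall1 ranged from 9.02 to 9.42 in the hippocampus (median 9.28), from 9.07 to 9.50 in the hypothalamus (median 9.27) and from 9.39 to 9.99 in the brain stem (median 9.68). In each of the 16 mice with 3 regions the brain stem held the highest Sall1 value. Hippocampus and hypothalamus were each below the brain stem by -0.43 (adjusted p = 7.01e-16 and 1.22e-14), and they differed from each other by less than 0.01 in size (95% interval -0.07 to 0.07, adjusted p = 0.999). Irf8 was the most variable, with values of 6.05 to 6.74 in the hippocampus (median 6.46), 5.65 to 6.48 in the hypothalamus (median 6.26) and 5.79 to 6.75 in the brain stem (median 6.34). The hippocampus was the highest region in 10 of 16 mice for Irf8, in 15 of 16 for Tmem119, where 1 mouse had equal values in hippocampus and hypothalamus, and in 16 of 16 for P2ry12, Cx3cr1, Gpr34, Fcrls, Olfml3 and Csf1r. The plot of levels by region shows these orders mouse by mouse. With only vehicle injected mice, Gpr34 (adjusted p = 0.249) and Fcrls (adjusted p = 0.113) were no longer called between hypothalamus and brain stem, nor was Irf8 between hippocampus and brain stem (adjusted p = 0.0761).

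**Figure D1:**
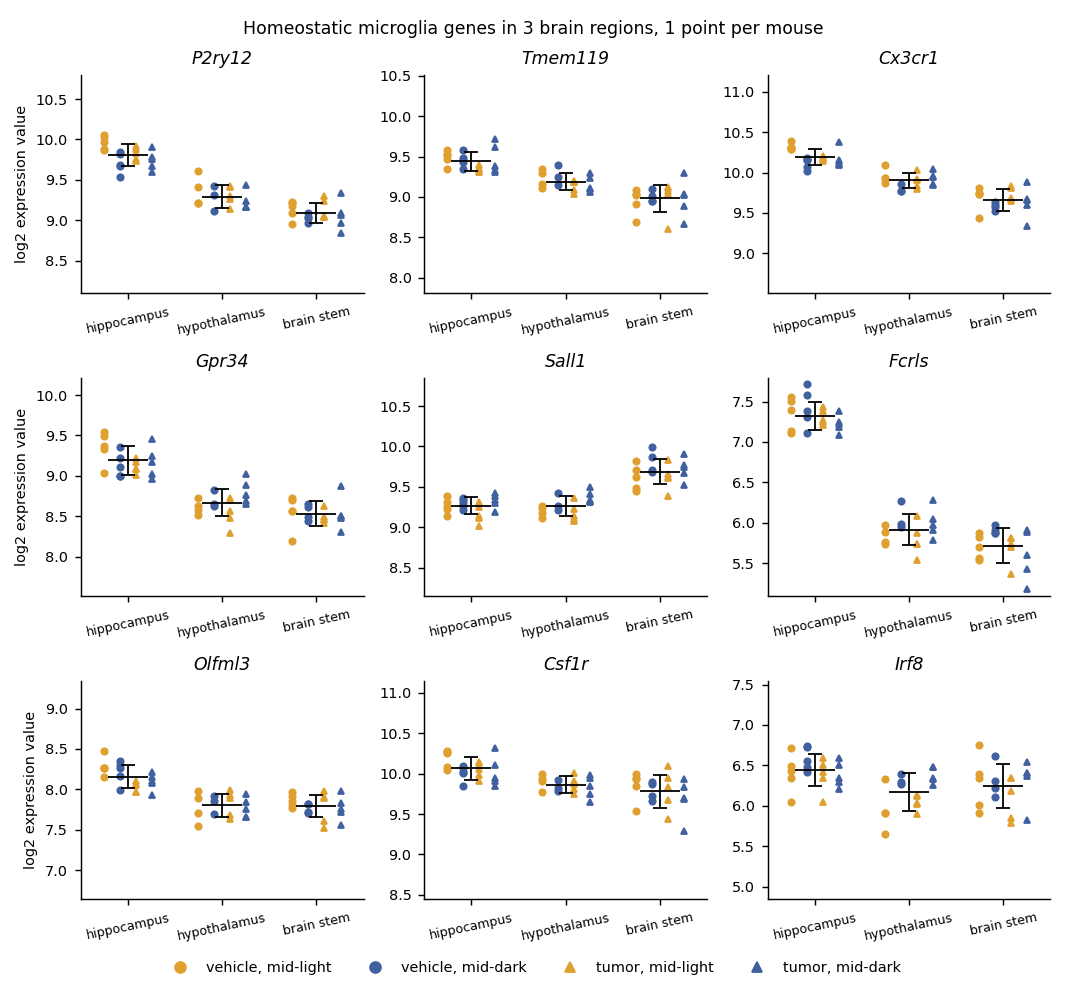
Log2 expression value (y axis, the same span of 2.7 in each panel) of the 9 members in hippocampus, hypothalamus and brain stem (x axis), 1 point per mouse; colors mark mid-light and mid-dark, circles vehicle and triangles tumor, and bars give the mean and SD over all mice of a region. Fcrls falls from a median of 7.29 in the hippocampus to 5.82 in the brain stem, and Sall1 alone rises, from 9.28 to 9.68.

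Other genes of microglia and myeloid cells showed a mixture of directions between regions. Of 29 such genes on the panel, 21 were higher and 7 lower in the hippocampus than in the hypothalamus, and 19 were higher and 8 lower than in the brain stem. Mertk, a receptor for engulfment, was higher by 0.92 and 1.08 in the hippocampus, Trem2, a lipid receptor, by 0.44 and 0.60, and Itgam, the integrin CD11b, by 0.48 and 0.55. Slc2a5, a fructose transporter, was lower in the hippocampus by -1.15 and -0.68, and the protease gene Ctss by -0.11 and -0.17. Markers of other cells differed between regions too. All 11 oligodendrocyte markers were lower in the hippocampus than in the brain stem (median -1.39), as were 6 of 7 endothelial markers (median -0.27), while 5 of 7 neuronal markers were higher. Of 9 astrocyte markers, 8 were lower and 1 higher in the hippocampus than in the hypothalamus (median -0.49), and 6 were lower and 2 higher than in the brain stem (median -0.47). Of 6 markers of perivascular macrophages and monocytes, 1, Msr1, differed between hippocampus and brain stem, and it was lower in the hippocampus. The part of tissue makeup in the differences of the members was not tested.

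The second comparison asked whether the members differed between mid-dark and mid-light, averaged over tumor-bearing and vehicle injected mice. Over the 3 regions Sall1 and Irf8 were higher at mid-dark, and P2ry12 and Cx3cr1 had lower estimates that lay just outside the threshold. In single regions, averaged over tumor status, Irf8 in the hypothalamus was the only member to pass, 1.28-fold higher at mid-dark. Over the 3 regions 2 of 9 members had an adjusted p under 0.05, both higher, against 13.5% of all genes (8.05% higher), and in the hypothalamus 1 of 9 against 2.34%. No member passed in the hippocampus, where 5.59% of genes did, or in the brain stem, where 4.94% did. At an unadjusted p under 0.05 by limma, 4 members were higher in the hypothalamus (13.2% of genes, 7.66% higher), 3 passed in the hippocampus (18.7%) and 1 in the brain stem (15.9%). The median difference of the members over the 3 regions was 0.03, against 0.01 over all genes, and the members ranged from -0.11 to 0.18.

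**Figure D2:**
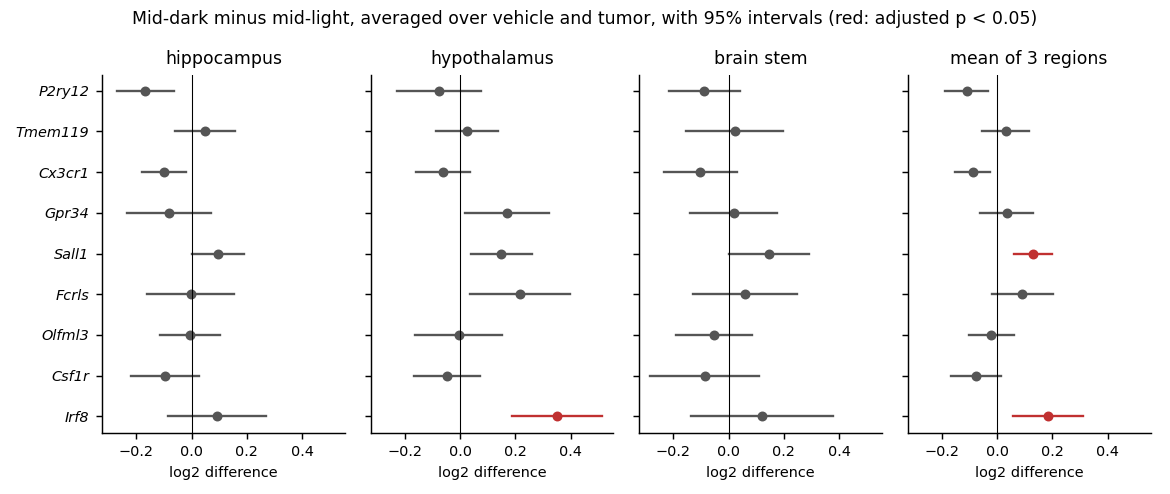
Mid-dark minus mid-light difference (x axis, log2) of each member (y axis), averaged over vehicle and tumor, in each region and over the 3 regions; points are limma estimates, lines 95% intervals, and red marks an adjusted p under 0.05. Irf8 in the hypothalamus, at 0.35, and Sall1 and Irf8 over the 3 regions, at 0.13 and 0.18, are the red entries.

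Irf8 in the hypothalamus was 6.26, 6.48, 6.34, 6.33 and 6.48 in the mid-dark tumor-bearing mice, compared with 6.13, 6.02, 5.89, 6.03 and 6.12 in the mid-light ones. In vehicle injected mice the mid-dark values were 6.29, 6.39 and 6.27, and the mid-light values 5.92, 5.92, 5.65 and 6.33. The phases did not overlap in tumor-bearing mice, as was the case for 2.47% of the 770 genes in this comparison. In vehicle injected mice, 1 mouse at mid-light lay among the mid-dark values. The mid-dark minus mid-light difference was 0.35 ± 0.077 (SE; limma, adjusted p = 0.0259), with 0.33 in tumor-bearing mice (adjusted p = 0.156; 1.04% of genes called) and 0.37 in vehicle injected mice (adjusted p = 0.311; 0.26% called). Mouse 30 was the vehicle injected mouse with the high value at mid-light. Without it the difference was 0.41 (adjusted p = 0.00104), and 0.49 in vehicle injected mice (adjusted p = 0.0237). In tumor-bearing mice it stayed at 0.33, with an adjusted p of 0.0302, as the 4 groups of a region share 1 estimate of spread. Mouse 30 is singled out here for its value, so these passes add no evidence. With all mice only the average was called. That call was lost, at adjusted p values up to 0.0766, when mouse 2, 4, 6, 7, 8 or 28 was left out. It was also lost with the absorbance ratio 260/280 of the RNA as a covariate (adjusted p = 0.0751). In the hippocampus and the brain stem the Irf8 values of the phases overlapped, with or without a tumor. Over the 3 regions the difference was 0.18 ± 0.063 (adjusted p = 0.0423), a call that was kept under 10 of 24 alternatives. It was 0.16 (adjusted p = 0.104) without the 4 brain stem samples with a 260/280 under 1.7, and 0.15 (adjusted p = 0.122) without mouse 22, the highest adjusted p reached.

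Sall1 at mid-dark had medians of 9.30, 9.27 and 9.79 in hippocampus, hypothalamus and brain stem of vehicle injected mice and 9.34, 9.33 and 9.74 in tumor-bearing mice. The mid-light medians were 9.27, 9.20 and 9.63 in vehicle injected mice and 9.14, 9.14 and 9.62 in tumor-bearing mice. All 6 mid-dark medians were thus above the mid-light medians, although the ranges overlapped in each region. The differences were 0.10 in the hippocampus, 0.15 in the hypothalamus and 0.15 in the brain stem, and 0.13 ± 0.0347 over the 3 regions (limma, adjusted p = 0.00762). Sall1 passed under all 24 alternatives for the mean of the 3 regions, with adjusted p values of 0.000879 to 0.0396. In tumor-bearing mice alone the difference over the 3 regions was 0.15 (adjusted p = 0.0467; 4.94% of genes called; called under 8 of 24 alternatives), and in vehicle injected mice 0.11 (adjusted p = 0.257).

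P2ry12 and Cx3cr1, the receptors for ADP and fractalkine, ran the other way. In the hippocampus of vehicle injected mice P2ry12 was 9.97, 9.89, 9.87, 10.06 and 10.03 in the mid-light group, against 9.84, 9.53, 9.69, 9.82 and 9.67 in the mid-dark group. Cx3cr1 there was 10.29, 10.38, 10.31, 10.30 and 10.29 in the light, against 10.15, 10.15, 10.18, 10.07 and 10.02 in the dark. The phases did not overlap for either gene, whereas 4.16% of the 770 genes were without overlap in this comparison. Their differences of -0.25 ± 0.0697 and -0.20 ± 0.0527 had unadjusted p values of 0.00184 and 0.00133 by limma and adjusted p values of 0.0652 and 0.0538. Gpr34 (-0.22) and Csf1r (-0.18) also had unadjusted p values under 0.05 in this comparison, which makes 4 of 9 members, all lower, against 16.1% of all genes (7.41% lower), and no member passed adjustment (2.34% of genes). In tumor-bearing mice the hippocampal difference was -0.08 for P2ry12 and 0.00 for Cx3cr1, with overlapping phases.

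In the hypothalamus of vehicle injected mice Cx3cr1 was 9.77, 9.86 and 9.77 in the dark, against 10.09, 9.87, 9.93 and 9.93 in the light. These values did not overlap either (limma, difference -0.16, adjusted p = 0.695; 7.92% of genes without overlap). Over the 3 regions Cx3cr1 was lower at mid-dark in vehicle injected mice by -0.16 ± 0.0457 (adjusted p = 0.0287; 6.75% of genes called). That call was lost without mouse 4, 6, 12, 22, 28, 30 or 32, each vehicle injected, with adjusted p values up to 0.105. Averaged with tumor-bearing mice, the differences were -0.09 ± 0.0313 for Cx3cr1 (adjusted p = 0.0511) and -0.11 ± 0.0395 for P2ry12 (adjusted p = 0.0514). Without the 4 brain stem samples of low 260/280 both passed (adjusted p = 0.0114 and 0.0245). Each of the 2 genes passed under 8 of 24 alternatives, and the highest adjusted p values by limma were 0.11 for Cx3cr1 and 0.122 for P2ry12. The difference between regions in the phase effect was not called for any member (smallest adjusted p = 0.409, for Gpr34 in hippocampus against hypothalamus).

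**Figure D3:**
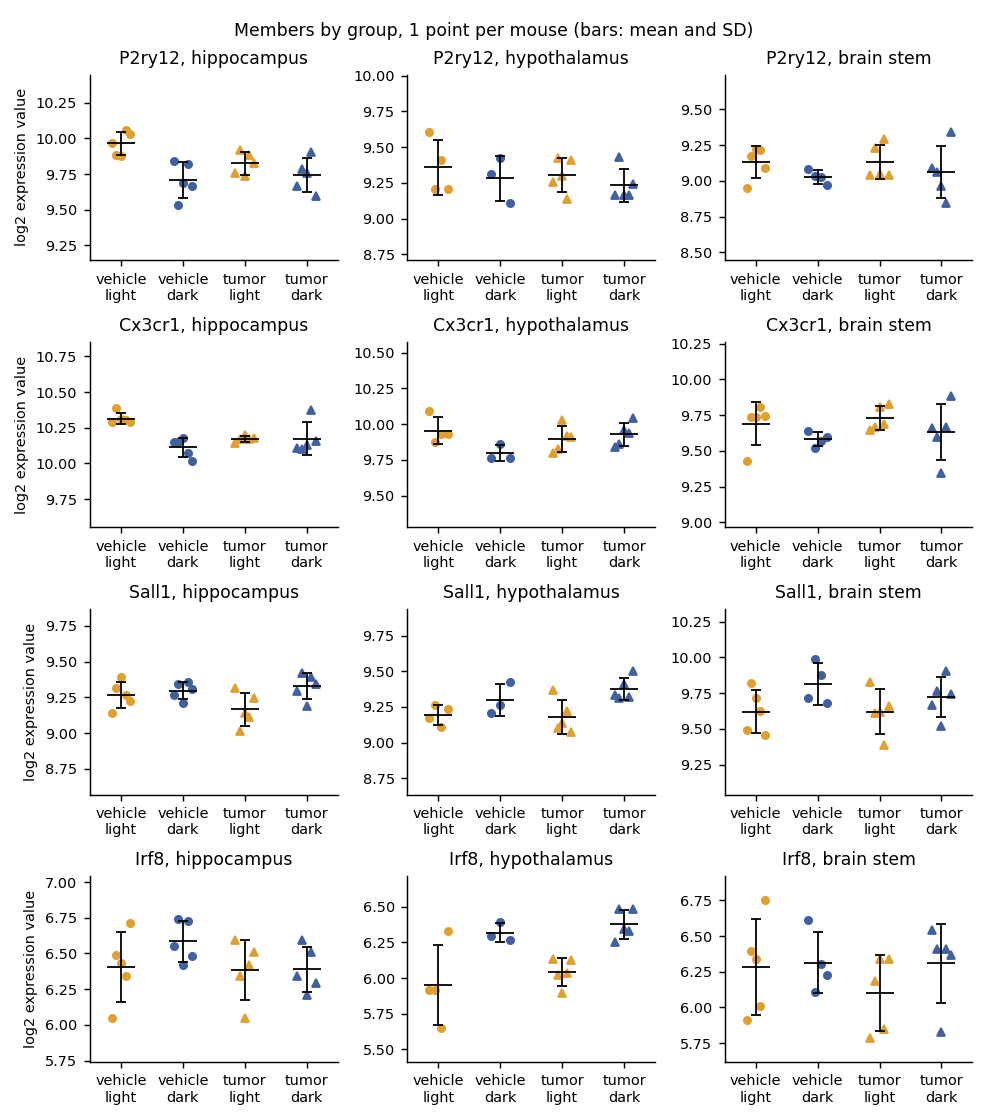
Log2 expression values (y axis) of P2ry12, Cx3cr1, Sall1 and Irf8 in the 4 groups of mice (x axis) for hippocampus, hypothalamus and brain stem, 1 point per mouse, with mean and SD as bars and a span of 1.3 in each panel. Hippocampal Cx3cr1 of vehicle injected mice lies at 10.29 or above at mid-light and at 10.18 or below at mid-dark. Hypothalamic Irf8 of tumor-bearing mice lies at 6.13 or below at mid-light and at 6.26 or above at mid-dark. Of the 770 genes, 4.16% and 2.47% were without overlap in these comparisons, in that order.

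Of the 29 other microglia and myeloid genes, 2 were higher and 2 lower at mid-dark over the 3 regions. Of all genes, 8.05% were higher and 5.45% lower, so these counts were close to the background. Lair1, an inhibitory collagen receptor, was higher by 0.25 (adjusted p = 0.000114) and Mertk by 0.11 (adjusted p = 0.0319), while Cd33, a sialic acid receptor, was lower by -0.22 (adjusted p = 0.0224) and Tgfbr1, a receptor for the TGF-beta on which microglial identity depends, by -0.13 (adjusted p = 0.00165). The 3 ligand genes listed with them did not pass. Of 19 genes of microglial activation none passed. Among other cells, 5 of 11 oligodendrocyte markers were lower at mid-dark (list median -0.17), against 5.45% of all genes. No neuronal marker and none of the 6 perivascular macrophage and monocyte markers passed. Their part in the phase differences of the members was not tested.

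The third comparison asked whether the members differed between tumor-bearing and vehicle injected mice. No member passed adjustment in any region at either phase, averaged over the phases or over the regions, and no tumor by phase interaction of a member passed (limma). The background was low as well. In the hippocampus 0.13% of genes were called at each phase and 0.52% averaged over them, in the hypothalamus at most 0.26%, and in the brain stem 0.26% at mid-dark, 0.78% at mid-light and 1.04% averaged. Over the 3 regions the shares were 0.649%, 1.95% and 2.34%, and 0.13% for the interaction. At an unadjusted p under 0.05 by limma, 3 of 9 members were lower in the hippocampus at mid-light, against 6.89% of genes (3.51% lower), none at mid-dark (6.63%) and 1, Olfml3, averaged over the phases (6.37%). Fcrls was the 1 member below that threshold in the brain stem at mid-dark (7.28%) and over the 3 regions, both at mid-dark (10.5%) and averaged over the phases (9.48%). Cx3cr1 was the 1 member below it for the interaction in the hippocampus (6.11%) and over the 3 regions (5.71%). In the hippocampus at mid-light all 9 estimates were negative, from -0.25 to -0.02 with a median of -0.14, against -0.01 over all genes. At mid-dark 6 of 9 were positive, with a median of 0.02. The 9 estimates share the same mice and are not independent.

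**Figure D4:**
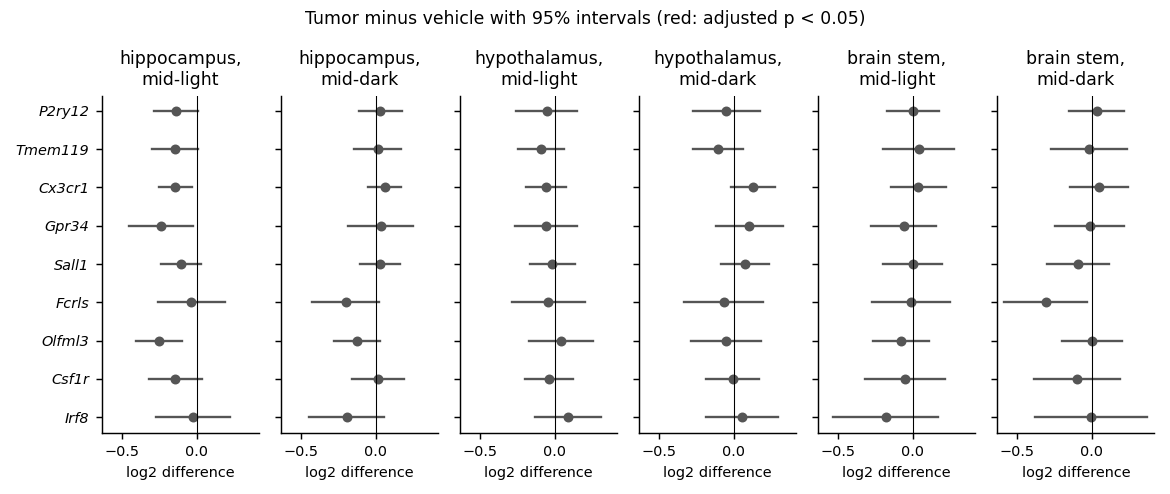
Tumor minus vehicle difference (x axis, log2) of each member (y axis) by region and phase; points are limma estimates and lines 95% intervals. In the hippocampus at mid-light all 9 points lie below 0, between -0.25 and -0.02, and no point in any panel has an adjusted p under 0.05.

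Olfml3 in the hippocampus at mid-light was 8.27, 8.27, 8.16, 8.47 and 8.27 in vehicle injected mice and 7.97, 7.97, 8.11, 8.07 and 8.06 in tumor-bearing mice. At mid-dark it was 8.30, 7.99, 8.17, 8.36 and 8.27 against 8.10, 8.08, 8.21, 8.16 and 7.93. The groups did not overlap at mid-light (2.08% of the 770 genes in this comparison) and did at mid-dark. The difference was -0.25 ± 0.0729 at mid-light (unadjusted p = 0.00274 by limma, adjusted p = 0.261) and -0.19 ± 0.0515 averaged over the phases (adjusted p = 0.166). Without mouse 8, the lowest vehicle injected mouse at mid-dark, the latter was -0.22 with an adjusted p of 0.0353. That was the one alternative in which a member passed for a tumor effect.

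Cx3cr1 in the hippocampus at mid-light was 10.14, 10.17, 10.20, 10.17 and 10.18 in tumor-bearing mice, below the 5 vehicle values given above, which start at 10.29. The groups did not overlap (2.08% of genes in this comparison), with a difference of -0.14 ± 0.0527 (limma, adjusted p = 0.502). At mid-dark the difference was 0.06 and the groups overlapped. The interaction for Cx3cr1 was 0.20 ± 0.0746 in the hippocampus (adjusted p = 0.601) and 0.13 over the 3 regions (adjusted p = 0.809). Gpr34 differed by -0.24 at mid-light in the hippocampus (adjusted p = 0.619), with overlapping groups.

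Fcrls was 5.42, 5.60, 5.91, 5.18 and 5.88 in the brain stem of tumor-bearing mice at mid-dark and 5.87, 5.91, 5.87 and 5.98 in vehicle injected mice. The groups overlapped, and the difference was -0.31 ± 0.131 (limma, adjusted p = 0.652). With 260/280 as a covariate it was -0.14. All 4 brain stem samples with a 260/280 under 1.7 came from tumor-bearing mice, and 3 of them were mid-dark. In the hypothalamus no member had an unadjusted p under 0.05 for tumor at mid-dark, mid-light or averaged, where 4.81%, 5.19% and 7.14% of genes did. Of the other microglia and myeloid genes none passed for tumor over the 3 regions, and of 19 activation genes 1 was higher, Ch25h, which encodes a cholesterol hydroxylase, by 0.82 (adjusted p = 4.16e-05). Averaged over the phases, 2.34% of all genes passed for tumor over the 3 regions. Ch25h was low, with medians of 4.19, 4.08 and 4.45 in hippocampus, hypothalamus and brain stem. Its means lay above 9.22%, 7.79% and 9.35% of panel genes.

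The fourth question was whether the members varied together between mice of a group. For each region the deviations of each mouse from its group mean were correlated over 36 pairs of members, 108 in all. The median r was 0.35 in the hippocampus, 0.20 in the hypothalamus and 0.40 in the brain stem, against 0.00 over all pairs of panel genes in each region. In the brain stem 17 of 36 pairs had an r over 0.5, in the hippocampus 11 and in the hypothalamus 1, which is 47.2%, 30.6% and 2.78% against 5.75%, 4.77% and 6.3% of all pairs. The sign was positive in 33, 28 and 21 of the 36 pairs in brain stem, hippocampus and hypothalamus, and 18 pairs were positive in all 3 regions. Some brain stem values leaned on few mice. The mean of the members there, in SD units, was -1.45 in mouse 2, -1.33 in mouse 11, -1.05 in mouse 1 and 1.36 in mouse 23. Cx3cr1 and Irf8 had an r of 0.63, and of 0.33 without the 2 mice farthest from the median of Cx3cr1. Tmem119 and Csf1r had an r of 0.79 and a Spearman rho of 0.46.

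Tmem119 and Cx3cr1 in the brain stem were the most alike (Pearson r = 0.83, p = 0.00011, Spearman rho = 0.73, p = 0.00076, permutation within groups, two-sided, 100000 permutations, 19 mice). After Benjamini-Hochberg adjustment over the 108 relations their p was 0.0119 for r and 0.041 for rho. Without the 2 mice farthest from the median of Tmem119, r was 0.84. It was the only pair to pass by r, and a further 12 pairs stood at an adjusted p of 0.0529 by the same permutation test. By rho, Tmem119 and Csf1r in the hippocampus also passed (rho = 0.80, r = 0.74, 0.82 without 2 mice, adjusted permutation p for rho 0.041). Unadjusted permutation p values under 0.05 were found for 14 pairs in the brain stem, 11 in the hippocampus and 2 in the hypothalamus.

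**Figure D5:**
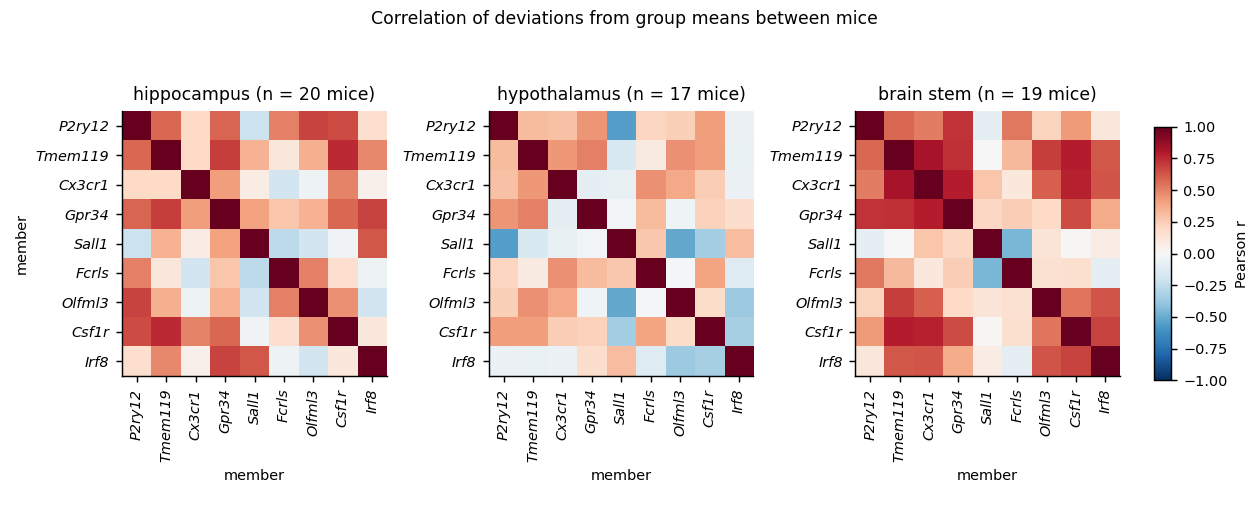
Pearson r of the deviations from group means for each pair of members (both axes) in hippocampus, hypothalamus and brain stem; red is positive, blue negative and the diagonal is each gene with itself. Median r over the 36 pairs is 0.35, 0.20 and 0.40, and the Sall1 row is pale or blue in most cells.

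Tmem119, Cx3cr1, Gpr34 and Csf1r formed the closest group in the brain stem, with mean r values of 0.57, 0.56, 0.49 and 0.50 with the other 8 members. In the hippocampus Gpr34 (0.50) and Tmem119 (0.44) led, and Cx3cr1 was at 0.15. Sall1 was the least alike, at 0.09, -0.13 and 0.02 in hippocampus, hypothalamus and brain stem, and its r with P2ry12 in the hypothalamus was -0.55 (rho -0.54, permutation p = 0.0337 for r, adjusted p = 0.152, and -0.58 without 2 mice). Fcrls was at 0.13, 0.20 and 0.12. Spread between mice was small for Cx3cr1 in the hippocampus, with a residual SD of 0.07 against a panel median of 0.18. For Cx3cr1 it was 0.08 against 0.17 in the hypothalamus and 0.14 against 0.16 in the brain stem. Spread was largest for Irf8 in the brain stem, at 0.28 against 0.16.

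The mean of the members, each scaled to unit SD, did not follow the mouse across regions. Its r was -0.11 between hippocampus and hypothalamus, 0.07 between hippocampus and brain stem and -0.05 between hypothalamus and brain stem (17, 19 and 16 mice, as a description). Single members differed. Csf1r was positive for each pair of regions, at 0.54, 0.61 and 0.46, and so was Irf8, at 0.59, 0.38 and 0.37, and Sall1 reached 0.60 between hippocampus and brain stem. Of 27 such relations none passed adjustment (Csf1r between hippocampus and brain stem, rho = 0.69, r = 0.71 without 2 mice, permutation p = 0.019 and adjusted p = 0.256 for r, p = 0.00482 and adjusted p = 0.0651 for rho), and 2 had an unadjusted permutation p for r under 0.05.

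The panel genes most like the mean of the members, by r averaged over the 3 regions among genes that are no members, were C1qb (0.71), Itgam (0.69), C1qa (0.67), C1qc (0.67), Ctss (0.65), Fcer1g (0.59), S100a10 (0.59), Rpl9 (0.58), Tyrobp (0.57) and Grm3 (0.57). Of these 10, 7 were on the list of other microglia and myeloid genes, which held 29 of the 760 genes ranked. The 7 include the 3 subunits of complement C1q and the adaptors Fcer1g and Tyrobp. At the other end of the ranking, Kmt2a (-0.65), Ambra1 (-0.60) and Ppfia4 (-0.59) had negative values nearly as large in size. What else the mean of the members follows was not tested. The mean of the other microglia and myeloid genes had an r of 0.90, 0.67 and 0.89 with the members in the 3 regions, and a Spearman rho of 0.87, 0.75 and 0.62. The perivascular macrophage and monocyte list was at 0.18, 0.36 and 0.32, and the neuronal list at -0.23, -0.41 and 0.01. The activation list, which shares genes with that of other microglia, was at 0.65, 0.41 and 0.67. The astrocyte list was at 0.50, 0.26 and -0.35, and the list of ligands and TGF-beta at -0.15, -0.17 and 0.64. By rho the list of ligands and TGF-beta was at 0.36 in the brain stem. With the 260/280 ratio of the RNA the mean of the members had an r of 0.04 in the hippocampus, 0.05 in the hypothalamus and -0.14 in the brain stem (20, 17 and 19 mice, as a description).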

How the data were processed

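The deposited log2 values cover 770 genes. The authors subtracted the background of negative controls, scaled by positive controls and codeset content in nSolver, and applied quantile normalization in Partek. Per the labels, outliers by raw data had been excluded. Raw counts were not used, the depth behind a value is unknown, and precision rests on how many mice there were.

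Groups follow the labels for region, tumor and phase. limma 3.58.1 in R 4.3.3 fitted 4 group means per region, and 12 group means over the regions with the mouse as a random block (correlation 0.136). The pairing comes from the animal; over all genes the median correlation of deviations of 1 mouse in 2 regions was 0.142 to 0.148. p-values were adjusted (Benjamini-Hochberg) over all genes of a comparison. A gene with 1 value throughout a region was not tested there. Correlations, permutations and plots used Python 3.11.15, numpy 2.4.6, scipy 1.17.1 and matplotlib 3.10.9. After quantile normalization a value is relative to the rest of the panel.

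The members and all lists were chosen with earlier results of these data known. All members are named. Genes of other lists could be named only where an adjusted p was under 0.05 in a reported comparison or where they held the 2 highest levels of a list. Among those that qualified, the examples were picked with their values in view. The 10 panel genes most like the members are named too, and the 3 least like them. The 2-region differences of tumor and phase effects and the promoter motifs were chosen after the data were seen. Alternatives were ordinary p values, genes averaging 5 or more, subtracted sample medians, only the 2 groups compared, 260/280 as a covariate, no brain stem samples under 1.7 in 260/280, no block, only vehicle injected mice, group means kept, Spearman rho, and each mouse left out. The models were tested on simulated data of 770 genes with 200 changed. The change was 0.3 in mid-dark minus mid-light, averaged over tumor status. It was recovered for 72% of changed genes in the hippocampus, 62.5% in the hypothalamus, 74% in the brain stem and 90% over 3 regions. These shares are not the power of the tests reported here. In the simulation the regions of a mouse varied independently, and each changed gene moved alike in all 3 regions. In the real data 43, 18 and 38 genes were called for this comparison in these regions, and 104 over the 3 regions. The estimates of the members over the 3 regions were smaller, from -0.11 to 0.18. Recovery was not estimated for tumor effects, for phase effects within tumor-bearing or vehicle injected mice, or for interactions.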

Additional observations from a re-analysis of the deposited data

Results flagged for a closer look

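In 99 groups of 4 or 5 mice with values of a member, 6 held a mouse whose gap to the nearest other mouse took up most of the range of the group; about 1 in 20 groups is picked out by chance, which here is 4.95. Cx3cr1 was picked out 3 times. It was 10.37 in the hippocampus of tumor-bearing mouse 19 at mid-dark, where the next value was 10.16. In the hippocampus of vehicle injected mouse 6 at mid-light it was 10.38, with the next at 10.31, and in the brain stem of vehicle injected mouse 2 at mid-light 9.43, with the next at 9.73. In the brain stem of tumor-bearing mouse 1 at mid-light, Tmem119 was 8.61 with the next at 9.04, and Fcrls was 5.37 with the next at 5.71. Irf8 was 5.83 in the brain stem of tumor-bearing mouse 11 at mid-dark, with the next at 6.37.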

How the results depend on the processing

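The 23 differences between regions that were called kept their direction under every alternative run, and those not called were not followed across the alternatives. Without the mouse block 8, 9 and 6 members were called for hippocampus against hypothalamus, hippocampus against brain stem and hypothalamus against brain stem, as with the block, and the pairing of regions changed no such call. Phase results depended more on the setting. Over the 9 phase comparisons of single regions (3 regions, each in both groups and in their average) 1 member was called. The count was 3 with ordinary p values, 4 for genes averaging 5 or more and 0 to 5 with each mouse left out. Over the 3 phase comparisons averaged over the regions 4 calls were made, 6 without the block and 1 to 6 with each mouse left out. For the tumor effect averaged over the phases the count was 0, and 0 to 1 with each mouse left out. The cause was not tested. The median r of member pairs ranged from 0.26 to 0.37 in the hippocampus, 0.11 to 0.24 in the hypothalamus and 0.28 to 0.48 in the brain stem with each mouse left out. Precision is limited by 3 to 5 mice per group and unknown depth.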
